A study of Mus musculus with 8 samples.

Results

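The 10 genes described here encode enzymes of fatty acid and triglyceride synthesis: Acly, Me1, Acaca, Acacb, Fasn, Elovl5, Elovl6, Scd1, Gpam and Dgat2. They were taken as a named set from 21887 protein-coding genes, and a chromatin loop was counted for a gene when 1 of its anchors lay in the mm10 gene body or within 5 kb of either end. In the knock-in library of ZT10 they were touched by 232 of 57865 listed loops, and in that of ZT22 by 26 of 40597. In the AAV libraries they were touched by 36 of 47939 and 27 of 41981 loops with the dhIDR construct, and by 27 of 31033 and 31 of 58102 with the WT construct.

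The study mapped loops in mouse liver by in-situ ChIA-PET, in which crosslinked chromatin is cut with AluI and religated inside nuclei, pulled down with an antibody and sequenced in pairs. A pair joining both anchors is a PET (paired-end tag). The pull-down used anti-HA beads against 3HA-tagged REV-ERBα, a nuclear receptor of the circadian clock. The values come from 6 of the 8 samples, and the 2 with an anti-CTCF antibody were not analysed here. Knock-in mice, genotype REV-ERBa3HA/3HA with no virus, gave 1 library at ZT10 (zeitgeber time, hours after lights on) and 1 at ZT22. Mice of genotype REV-ERBaf/fREV-ERBbf/f, with floxed alleles of both REV-ERB genes, received AAV8-TBG-Cre together with AAV8-TBG-3HA-REV-ERBa-delhIDR (dhIDR, 2 libraries) or with AAV8-TBG-3HA-REV-ERBa-WT (WT, 2 libraries), all collected at ZT10. By its label the dhIDR form lacks the hIDR, which the series title ties to an intrinsically disordered region. All 4 AAV libraries therefore carried the Cre virus, and both constructs were driven by the TBG promoter, which is active in hepatocytes, so other liver cells kept their own untagged REV-ERBs. Ages and pooling of animals were not given. The labels do not state that replicates are separate animals, so a p-value refers only to the spread of the libraries at hand, which may be technical.

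De novo lipogenesis turns surplus carbohydrate into fat: citrate leaving the mitochondrion is cleaved to acetyl-CoA, carboxylated to malonyl-CoA and built into palmitate, which is then elongated, desaturated and esterified to glycerol. In the liver these genes follow feeding and the time of day, under SREBP-1c, ChREBP and LXR. REV-ERBα represses transcription with the NCoR-HDAC3 corepressor, and loss of both REV-ERBs from mouse liver is known to raise hepatic fat.

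The ZT10 knock-in library stood apart from the other 5. Listed PETs numbered 320427 in the ZT10 and 132709 in the ZT22 knock-in library, 178426 and 160635 in the dhIDR and 104161 and 204018 in the WT libraries. The median loop spanned 40.1 kb at ZT10, 524 kb at ZT22, and 647 to 1071 kb in the AAV libraries, although those were also collected at ZT10. Both anchors were at least 700 bp wide in 71.5% of ZT10 loops, in 11.7% of ZT22 loops and in 0.669 to 5.89% of AAV loops. The list of 8 hepatocyte marker genes held 51.8 PETs per 10000 listed at ZT10 (7 of 8 genes with a PET) and 3.69 at ZT22 (5 of 8), against 1.15 to 2.24 in AAV libraries. The 6 Kupffer cell markers held 0.0936 at ZT10 (1 of 6 genes with a PET) and 2.49 at ZT22 (4 of 6), against 1.31 to 3.82 in AAV libraries. The lists of the other 5 cell types held 0.811 to 3.62 at ZT10 and 0.452 to 3.99 at ZT22. Each knock-in time is 1 library, so time of day and library cannot be told apart, and the part of these gross differences in the values below was not tested. Every listed loop has at least 3 PETs, so a gene listed at 0 may still have unlisted loops of up to 2 PETs.

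Promoter flanks are shown for the members whose annotated transcription start lay under a ZT10 loop anchor, since these are the promoters that the ZT10 loops reached. Windows were in hand for 8 members (none for Scd1 or Dgat2), in RefSeq's GRCm38.p6, whose coordinates are those of mm10. Each line gives the 250 bases before the start, 5′ to 3′ on the gene's strand, in lower case. Capitals mark AGGTCA, the half-site bound by REV-ERBs and other nuclear receptors, on either strand (TGACCT when it reads on the other strand), or CACGTG, the E-box bound by CLOCK-BMAL1, SREBP-1 and others, which reads the same on both strands.
Acly (chr11:100528001-100528250, minus strand): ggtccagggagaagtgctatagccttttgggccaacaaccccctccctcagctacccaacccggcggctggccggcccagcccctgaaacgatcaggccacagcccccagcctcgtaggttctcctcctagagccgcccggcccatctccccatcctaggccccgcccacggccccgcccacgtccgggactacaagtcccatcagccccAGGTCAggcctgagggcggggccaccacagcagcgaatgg
Elovl5 (chr9:77917115-77917364, plus strand): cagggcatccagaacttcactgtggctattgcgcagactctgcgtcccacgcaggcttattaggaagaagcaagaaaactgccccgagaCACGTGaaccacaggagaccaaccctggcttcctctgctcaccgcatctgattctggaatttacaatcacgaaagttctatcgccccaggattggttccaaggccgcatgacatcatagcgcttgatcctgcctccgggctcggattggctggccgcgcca
Elovl6 (chr3:129532136-129532385, plus strand): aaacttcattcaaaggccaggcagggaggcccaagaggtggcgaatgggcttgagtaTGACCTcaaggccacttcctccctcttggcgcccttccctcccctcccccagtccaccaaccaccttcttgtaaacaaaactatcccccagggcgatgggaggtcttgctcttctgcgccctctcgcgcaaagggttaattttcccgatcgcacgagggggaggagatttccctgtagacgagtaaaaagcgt
Gpam, start at the high-coordinate end (chr19:55127239-55127488, minus strand): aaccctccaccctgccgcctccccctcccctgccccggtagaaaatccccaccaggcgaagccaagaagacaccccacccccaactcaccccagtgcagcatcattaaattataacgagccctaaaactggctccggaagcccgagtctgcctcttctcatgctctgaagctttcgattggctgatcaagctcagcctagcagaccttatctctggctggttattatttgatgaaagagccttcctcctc
Gpam, start inside the gene (chr19:55099478-55099727, minus strand): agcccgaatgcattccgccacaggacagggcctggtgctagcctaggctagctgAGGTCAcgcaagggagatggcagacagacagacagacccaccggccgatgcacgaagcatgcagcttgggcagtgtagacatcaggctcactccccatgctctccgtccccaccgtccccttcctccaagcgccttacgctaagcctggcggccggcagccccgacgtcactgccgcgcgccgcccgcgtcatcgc

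In the ZT10 knock-in library 4 loops with 21 PETs had an anchor over the Acly window, 6 loops with 32 PETs over the Elovl5 window and 5 loops with 23 PETs over the Elovl6 window. The outer Gpam window lay under 6 loops with 40 PETs and the inner one under 1 loop with 3 PETs. The ZT22 library had no PET over any of them. In the AAV libraries the outer Gpam window had 3 PETs in dhIDR replicate 1, the Acly window 3 PETs in WT replicate 1 and the inner Gpam window 4 PETs in WT replicate 2. No ZT10 anchor covered the windows of Fasn, Acaca, Acacb or Me1. Those of Fasn, Acaca and Acacb lie inside the genes, so the outer ends of these genes were not read. Me1 had a window at its outer end and another inside the gene.

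AGGTCA began 40 bases before the start of Acly and 196 bases before the inner start of Gpam, and stood on the opposite strand 193 bases before the start of Elovl6. It occurs on either strand in 14.0% of all 32851 windows of this length. CACGTG lay 161 bases before the Elovl5 start and occurs in 6.02% of windows. Neither the RevDR2 element, which is AGGTCA repeated after 2 free bases (3 of 32851 windows), nor the RORE, an AGGTCA-type half-site with an A/T-rich flank (0.332% of windows), was found in these letters. These matches are descriptions of the sequence and not binding sites.

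Summed over the 10 genes, loops held 40.9 PETs per 10000 listed at ZT10 and 6.18 at ZT22. The dhIDR libraries held 7.40 and 6.54, and the WT libraries 8.74 and 5.20. The ZT10 knock-in library was thus far above the other 5, and the AAV libraries of both constructs lay around the ZT22 value. By gene, the ZT10 library was the highest of the 6 in PETs per 10000 listed at 8 members, and at Acacb and Me1 it was the lowest.

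**Figure D1:**
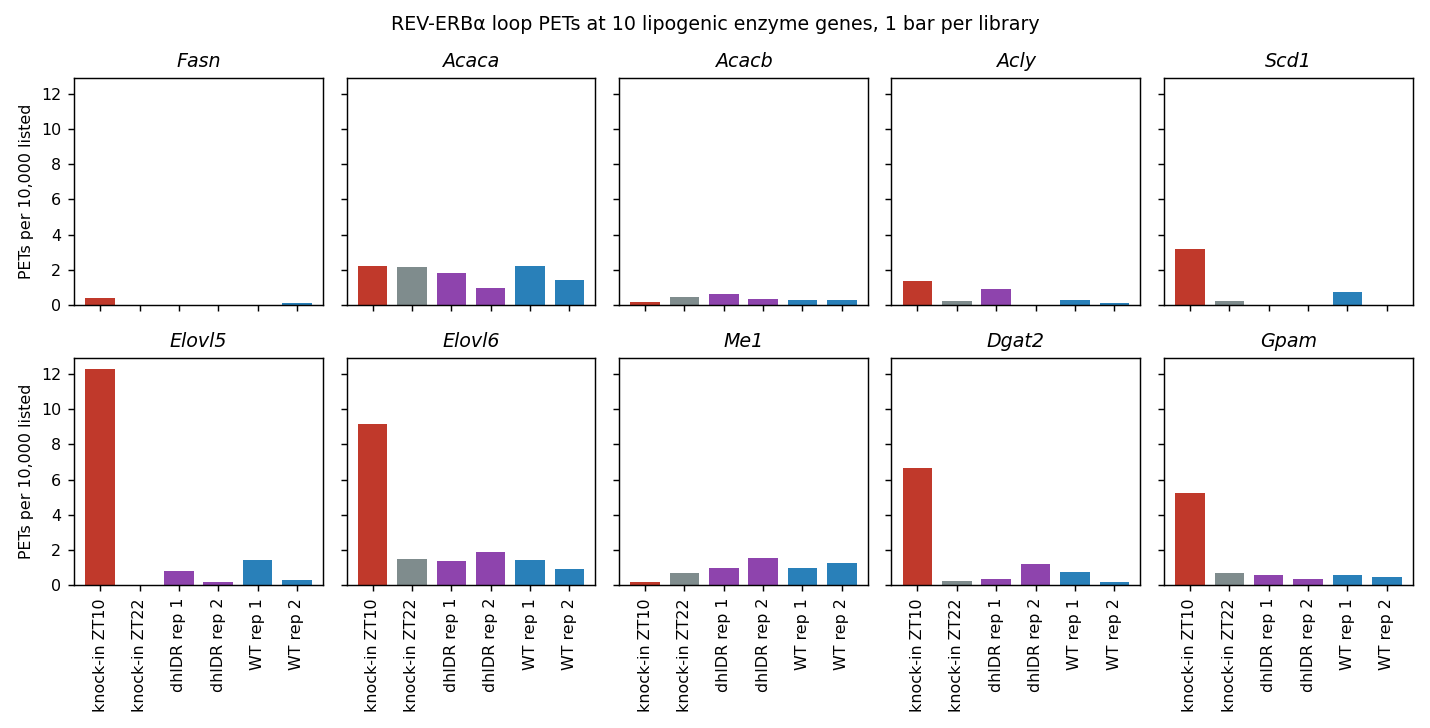
PETs per 10,000 listed PETs (vertical axis) of each of the 10 genes in the 6 libraries, 1 bar per library with no error bar. The knock-in ZT10 bar reaches 12.3 at Elovl5, 9.18 at Elovl6 and 6.65 at Dgat2, while at Acaca it reaches 2.25, beside 0.996 to 2.21 in the other libraries.

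Levels can be compared between genes only per kb of window. At ZT10 Dgat2 came first with 5.45 PETs per kb (exact Poisson 95% interval 4.75 to 6.24), followed by Elovl5 with 5.11 (4.61 to 5.64) and Scd1 with 4.39 (3.58 to 5.32). Elovl6 had 2.53 (2.25 to 2.84) and Gpam 2.40 (2.05 to 2.79). Intervals of neighbours in this order overlapped within the first 3 and within this pair, and the step between Scd1 and Elovl6 exceeded counting error. Acly had 0.714 PETs per kb, Fasn 0.445 and Acaca 0.255, with each interval overlapping the next. Acacb with 0.0524 and Me1 with 0.0482 came last and could not be ordered. Intervals here and below take each PET as an independent molecule and cover counting error only.

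Among all 21887 genes ranked by ZT10 PETs per kb, the first 5 stood at percentiles 98.7 (Dgat2), 98.5 (Elovl5), 98.2 (Scd1), 96.1 (Elovl6) and 95.8 (Gpam). Acly stood at 87.9, Fasn at 83.0, Acaca at 76.2, Acacb at 54.8 and Me1 at 54.0. The median was 1.56 PETs per kb over the members, 0.0234 over all genes and 0.0680 over 11808 genes with windows as long as the members'. Over the 40 further genes of lipid synthesis described below it was 1.31, so a high density was not particular to the members. All 10 members had a ZT10 PET, as did 52.1% of all genes and 63.6% of those with windows as long. Of the members 7 had at least 30, as did 12.0% of all genes. At ZT22 the median was 0.0745 PETs per kb over the members and 0.0711 over all genes, and no member reached 30 PETs.

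Between the knock-in libraries, 6 of the 7 members with at least 30 PETs over both had a share of listed PETs at least 4 times higher at ZT10 than at ZT22, and none was 4 times lower. Of the 3721 genes with that many PETs, 41.9% were at least 4 times higher at ZT10 and 16.3% at least 4 times lower. All 7 reached 30 PETs in the ZT10 library alone and none did at ZT22, so a member low at ZT22 entered only by being high at ZT10, and nothing is read from the count. The median of these genes was itself 1.46 higher on the log2 scale at ZT10. Set against that median gene, 3 of 7 members were still 4 times higher (Elovl5, Dgat2 and Scd1), as were 11.9% of the 3721 genes, and the split of all calls went to 31.3% higher, against 72.0% in the shares of listed PETs. There is 1 library per time, so the differences have no replicate check and no p-value.

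**Figure D2:**
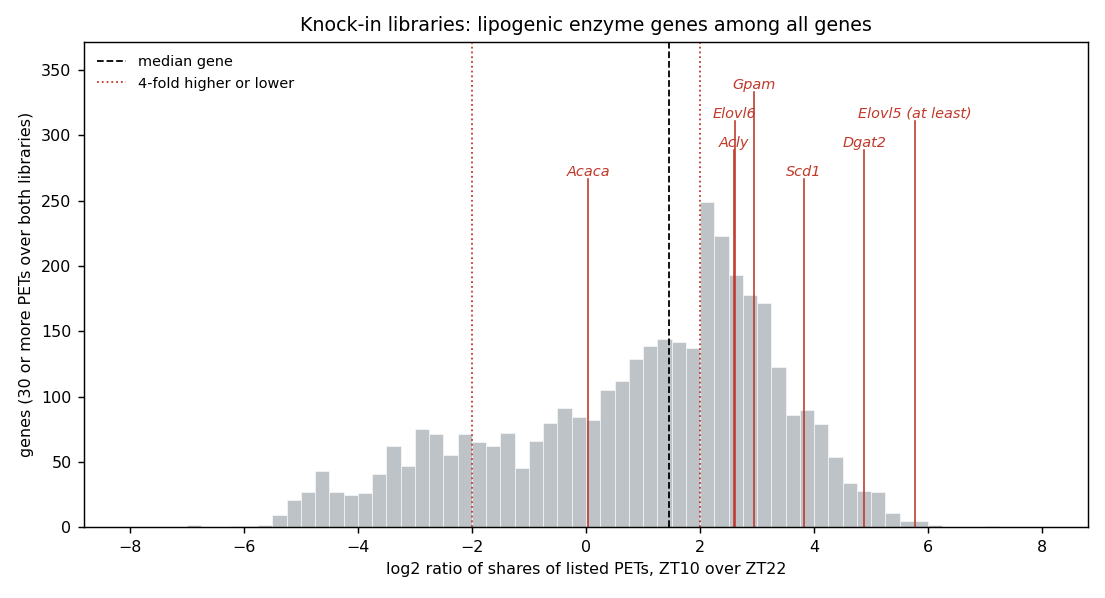
Distribution of the log2 ratio of shares of listed PETs, ZT10 over ZT22, over 3721 genes with at least 30 PETs (grey), with 7 members as red lines. Acaca lies at 0.04, left of the median gene at 1.46, and the other 6 lie right of the 4-fold line, up to Elovl5 at a lower bound of 5.77.

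Acly, the cytosolic ATP citrate lyase that makes acetyl-CoA from citrate, is on chromosome 11 at 100476352 to 100528000. It had 44 PETs in 10 loops at ZT10 and 3 PETs at ZT22, against 16 and 0 PETs in the dhIDR and 3 and 3 PETs in the WT libraries. Its share was 6.07 times higher at ZT10 than at ZT22 (exact Clopper-Pearson 95% interval 1.95 to 30.6). The call rested on 3 PETs at ZT22 and held in 4 of 10 other settings. When both anchors had to be at least 700 bp wide, 41 PETs at ZT10 stood against 0 PETs at ZT22, which gives no more than a lower bound under 4-fold. All 10 ZT10 loops were shorter than 30 kb and 9 of them touched an end of the gene, here the start, with 90.9% of Acly's PETs. The strongest loop, with 8 PETs, ran 8.79 kb inside the gene up to its start. The partner gene with most PETs was the next gene, Ttc25, whose end was joined to Acly by 6 loops with 26 PETs spanning 11.2 to 29.4 kb.

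Me1, the cytosolic malic enzyme that supplies NADPH for fatty acid synthesis, is on chromosome 9 at 86581363 to 86695914. It showed the reverse order when loops of all spans were counted. It had 6 PETs at ZT10 and 9 PETs at ZT22, against 17 and 25 in the dhIDR and 10 and 26 in the WT libraries. Per 10000 listed this is 0.187 at ZT10 and 0.678 at ZT22, against 0.953 and 1.56 with dhIDR and 0.960 and 1.27 with WT, so the AAV libraries all lay above both knock-in libraries. It held too few PETs in the knock-in libraries to be called. Its ZT22 loops all spanned over 2 Mb, and with spans up to 2 Mb it had 6 PETs at ZT10 and 0 at ZT22. Its strongest ZT10 loops had 3 PETs each, 1 of 8.03 kb inside the gene and 1 of 200.4 kb to the body of Dop1a.

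The carboxylases make malonyl-CoA: Acaca encodes the cytosolic enzyme that feeds synthesis, and Acacb the form at the mitochondrial surface whose product restrains fatty acid oxidation. Acaca (chromosome 11, 84129635 to 84401651) had 72 PETs at ZT10 and 29 at ZT22, against 33 and 16 with dhIDR and 23 and 29 with WT. Its share of listed PETs was 1.03 times that at ZT22 (0.660 to 1.64), the only one of the 7 members within 4-fold, and its log2 ratio of 0.04 lay at percentile 31.9 of the 3721 genes. Acacb (chromosome 5, 114146321 to 114250761) had 6 PETs at both times, against 11 and 6 PETs with dhIDR and 3 and 6 with WT. Acaca's ZT10 loops formed a ladder inside the gene, with 16 of 20 loops and 60 of 72 PETs having both anchors in its window. The anchor with most, 10 loops and 37 PETs, overlapped Gm11437, a gene annotated within Acaca, and 47 of the 72 PETs touched another gene at the Acaca anchor, so they cannot be given to Acaca alone. Its strongest loop had 7 PETs over 17.2 kb. Both Acacb loops at ZT10 had 3 PETs and ended at Alkbh2 and Ung, DNA repair genes next to it.

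Fasn, the fatty acid synthase that builds palmitate (chromosome 11, 120805958 to 120825166), had 13 PETs in 4 loops at ZT10 and 0 PETs at ZT22, against 0 and 0 PETs with dhIDR and 0 and 3 PETs with WT. These were too few PETs for a call between times. All 13 ZT10 PETs also lay within 5 kb of a neighbouring gene, Ccdc57 or Dus1l, so the loops cannot be assigned to Fasn alone. The strongest, with 4 PETs over 24.9 kb, ended in the body of Ccdc57.

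The elongases extend the chain, Elovl6 from palmitate to stearate and Elovl5 on polyunsaturated chains, and were the members with most PETs. Elovl5 (chromosome 9, 77917365 to 77984519) had 394 PETs in 56 loops at ZT10 and 0 PETs at ZT22, against 14 and 3 PETs with dhIDR and 15 and 6 with WT. With 0 set to the floor of 3 PETs in the library, its share was at least 54.4-fold higher at ZT10 than at ZT22. This bound leaves out counting error, and with 0 kept as 0 the exact Clopper-Pearson 95% interval starts at 44.0. The ratio stood at percentile 99.8 of the 3721 genes, a set that Elovl5 entered only through its ZT10 PETs. Genes with 0 at ZT22 share the floor, so among them this rank follows ZT10 PETs alone. The call held in all 10 other settings, with a log2 ratio or bound of at least 2.88. Elovl6 (chromosome 3, 129532386 to 129638495) had 294 PETs in 49 loops at ZT10 and 20 PETs in 6 loops at ZT22, against 25 and 30 PETs with dhIDR and 15 and 19 with WT. Its share was 6.09 times higher at ZT10 (3.87 to 10.1), and relative to the median gene the log2 difference fell to 1.15, inside 4-fold. So the elongases differed in the ZT22 library, where Elovl6 had 6 loops and none was listed at Elovl5. Those 6 loops had at most 4 PETs each, near the listing minimum, and 50.0% of them spanned over 2 Mb. With 25 kb flanks Elovl5 had 3 PETs at ZT22 and Elovl6 20. The difference rests on 1 library, and the part of window length in it was not tested.

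At Elovl5 the ZT10 loops joined 3 places inside the gene to each other and to intergenic places on either side. When overlapping anchors were merged, the place with most PETs (77938142 to 77946449, 24.9 kb from the gene's start) took part in 24 loops with 225 PETs, 57.1% of the total. The others inside the gene took part in 20 loops with 132 PETs (77949529 to 77956252) and 15 loops with 120 PETs (77924522 to 77931490). The strongest loop joined this last place to the first over 17.2 kb, with 36 PETs. Upstream, 11 loops with 79 PETs reached an intergenic anchor 68.4 kb before the start, and 7 loops with 37 PETs one 71.6 kb before it, both between Elovl5 and Gclc, whose nearest end was 53.2 and 49.9 kb farther on. Downstream, 6 loops with 49 PETs reached an anchor 46.8 kb past the end of the gene. Nearer the gene, an anchor centred 6.19 kb before the start (77908785 to 77913563) had 8 loops with 67 PETs. The edge of the 5 kb flank cuts this anchor, so its loops were counted partly as own window and partly as outside genes. In all, 198 of Elovl5's 394 PETs led outside genes and 193 stayed in its own window. The anchor over the start itself, shown above with its E-box, had 10 loops with 45 PETs.

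At Elovl6 a single place dominated. The merged anchor at 129589844 to 129594327, 59.7 kb into the gene, took part in 23 of 49 loops and 196 of 294 PETs (66.7%). The strongest member loop of the library ended there, with 51 PETs over 9.56 kb from 129580746 to 129584644, and 0.563% of all ZT10 loops had as many. The anchor over the start, whose flank holds the reverse-strand AGGTCA shown above, had 14 loops with 61 PETs. An intergenic anchor 102.7 kb before the start had 6 loops with 29 PETs, and 3 loops with 10 PETs reached an end of Enpep, the partner gene with most PETs, 199 to 297 kb away. In the own window lay 76.9% of the PETs, the highest share among members after Acaca's 83.3%.

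**Figure D3:**
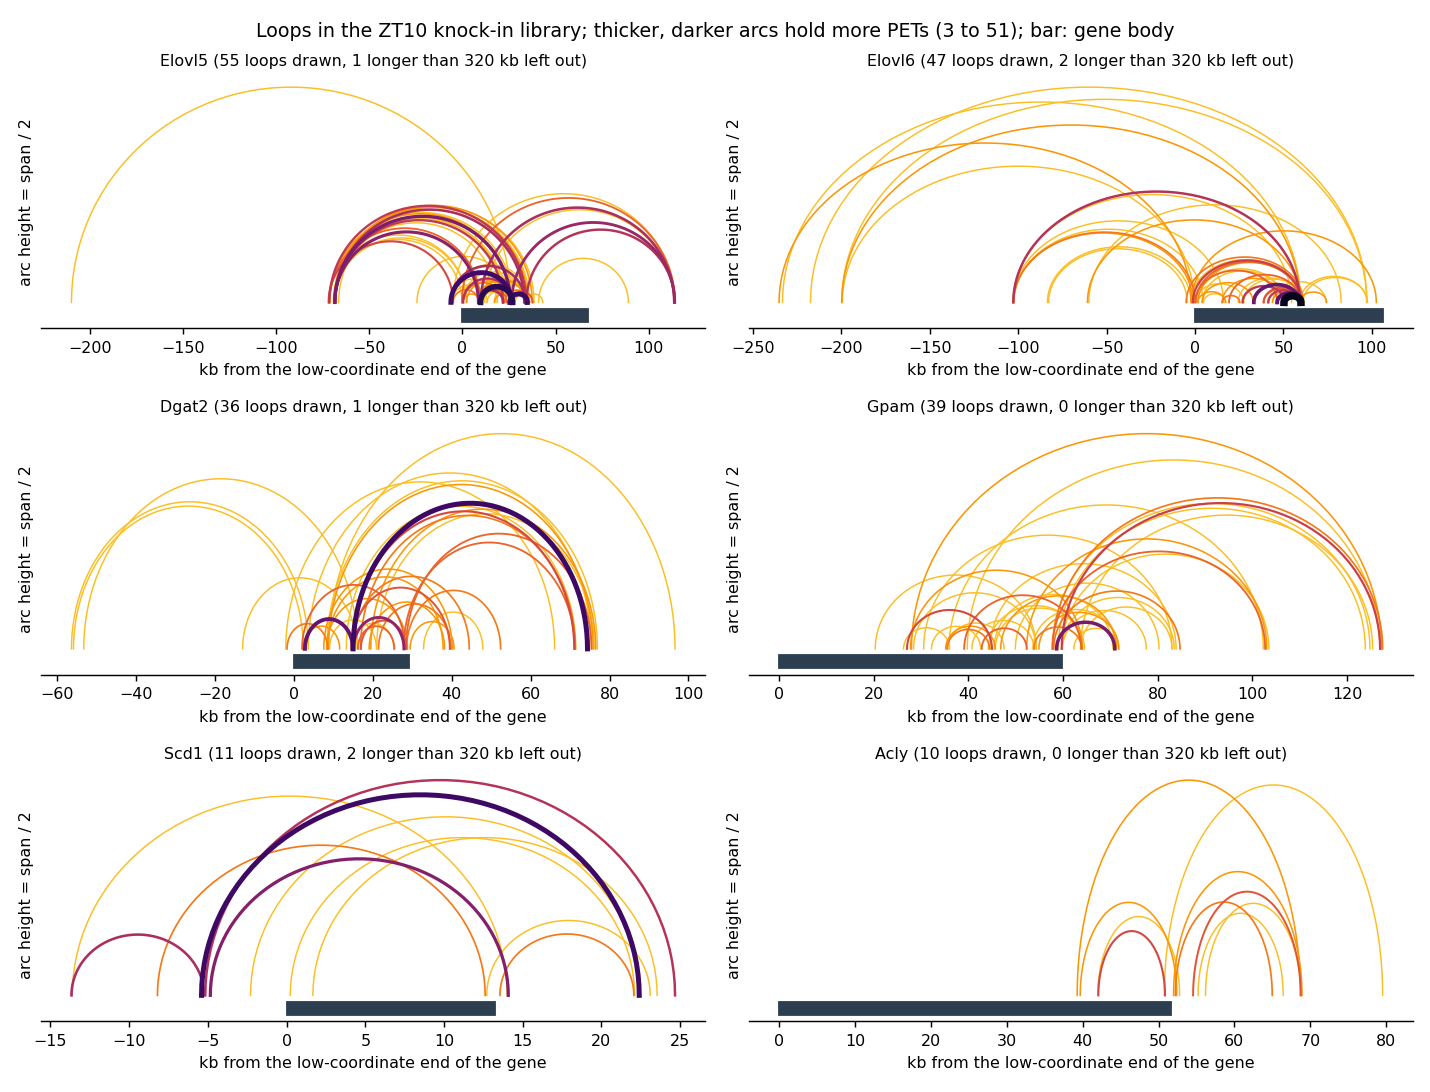
Loops of 6 genes in the ZT10 knock-in library, drawn as arcs between anchor centres, with distance in kb from the gene's low-coordinate end on the horizontal axis and the gene body as a bar. Thicker and darker arcs hold more PETs (3 to 51), and loops of 320 kb or more are left out. Elovl6 arcs converge about 60 kb into the gene, those of Elovl5 link the gene to places on both sides, and those of Dgat2 run to about 75 kb, inside Mogat2.

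Scd1, the stearoyl-CoA desaturase that makes oleate (chromosome 19, 44394450 to 44407709), had 102 PETs in 13 loops at ZT10 and 3 PETs at ZT22, against 0 and 0 PETs with dhIDR and 8 and 0 PETs with WT. Its share was 14.1 times higher at ZT10 than at ZT22 (4.68 to 69.4). The call held in 9 of 10 other settings. In the other, with wide anchors, 96 PETs at ZT10 stood against 0 PETs at ZT22, and with 0 set to 3 PETs the log2 ratio was at least 0.96, a bound under 4-fold. Its loops bracketed the short gene: the anchor 4.93 kb below its low-coordinate end had 4 loops with 71 PETs, and an intergenic anchor 10.3 kb beyond its high-coordinate end had 7 loops with 59 PETs. The strongest loop joined these over 27.8 kb with 31 PETs. All 13 loops touched a gene end, but the 5 kb zones around its ends cover most of its 23.3 kb window. Outside genes led 82 of 102 PETs, the highest count relative to its total among the 10 genes.

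Glycerol esterification starts with Gpam, the mitochondrial glycerol-3-phosphate acyltransferase, and ends with Dgat2, which adds the last acyl chain of triglyceride. Gpam (chromosome 19, 55067635 to 55127319) had 167 PETs in 39 loops at ZT10 and 9 PETs in 3 loops at ZT22, against 10 and 6 PETs with dhIDR and 6 and 10 with WT. Its share was 7.69 times higher at ZT10 (3.95 to 17.1), a call lost relative to the median gene (log2 1.48) and with wide anchors (1.57). Dgat2 (chromosome 7, 99153663 to 99182713) had 213 PETs in 37 loops at ZT10 and 3 PETs in 1 loop at ZT22, against 6 and 19 PETs with dhIDR and 8 and 4 with WT. Its share was 29.4 times higher at ZT10 (9.93 to 144), and the call held in all 10 other settings. The ratio stood at percentile 98.3 of the 3721 genes, a set that Dgat2 also entered only through its ZT10 PETs. Both genes were thus high in the ZT10 library and near the AAV level at ZT22.

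All 39 Gpam loops at ZT10 were shorter than 100 kb. The anchor over its outer start (55124499 to 55128125) had 10 loops with 59 PETs, and the strongest loop ran from there 12.3 kb to an intergenic anchor with 19 PETs. The partner gene with most PETs was Tectb, 7 loops with 30 PETs over 61.7 to 99.3 kb, 5 of which (24 PETs) also ended near Gucy2g. At Dgat2 an anchor inside the gene (99166312 to 99171305) had 13 loops with 118 PETs, 55.4% of the total.

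The strongest Dgat2 loop, 31 PETs over 59.4 kb, ran from that anchor into the body of Mogat2, a monoacylglycerol acyltransferase of the same gene family whose product is the substrate of Dgat2. Mogat2 was also the partner gene with most PETs. In all, 12 loops with 79 PETs joined both genes' windows at ZT10, against 0 PETs at ZT22. In the AAV libraries 3 and 6 PETs joined them with dhIDR, and 0 and 0 PETs with WT. Mogat2 itself had 190 PETs at ZT10 and 0 at ZT22, so these genes share loops and their counts are not independent. The dhIDR values rest on 1 and 2 loops at the listing minimum of 3 PETs, and this difference between the constructs was not tested.

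Spans of the members' ZT10 loops had a median of 30.1 kb, and 83.2% were under 100 kb (Wilson 95% interval 77.8 to 87.5). Among all ZT10 loops touching a gene the median was 39.2 kb, and 73.6% were under 100 kb. At ZT22 the members' median was 469 kb, beside 639 kb over all loops touching a gene. The members' medians were 147 and 675 kb in the dhIDR libraries, beside 728 and 1245 kb over all loops touching a gene. They were 239 and 184 kb in the WT libraries, beside 1215 and 1019 kb. The members' loops were shorter than the library median in each of the 6 libraries. The members' 26 to 36 loops outside ZT10 spread from under 25 kb to over 50 Mb, so these medians are imprecise.

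**Figure D4:**
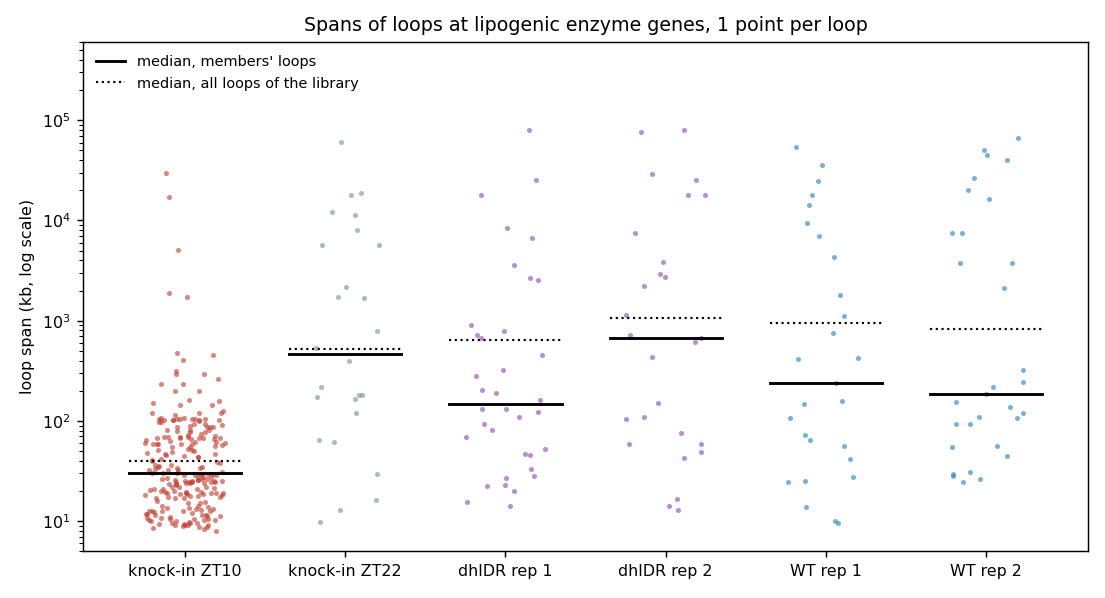
Span of each loop at the 10 genes (log scale, kb) by library, with the median over the members' loops as a solid line and over all loops of the library as a dotted line. ZT10 loops gather below 100 kb around a median of 30.1 kb, while loops of the other 5 libraries scatter from about 10 kb to over 50 Mb.

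Of the members' ZT10 loops 28 of 232 (12.1%) held at least 10 PETs, with 520 of the 1311 PETs, beside 9.21% of all ZT10 loops. Of these 28, 14 lay at Elovl5, 6 at Elovl6, 4 at Scd1, 3 at Dgat2 and 1 at Gpam, and the other 5 members had none. In the other libraries 1 member loop reached 10 PETs, at Elovl6 in dhIDR replicate 2, with 13 PETs over 25.1 Mb and matched in no other library. Both anchors were at least 700 bp wide in 81.0% of the members' ZT10 loops and in 7.69% of those of ZT22.

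By partner, 49.9% of the members' ZT10 PETs joined places within 1 gene's own window, 34.3% led outside genes, and the rest led into the body of another gene (118 of 1311 PETs) or to within 5 kb of another gene's end (89 PETs). As a share of loops, 43.5% (37.3 to 50.0) stayed in the own window, beside 44.0% of all loops touching a gene. Another gene's end was the partner of 9.48% (6.35 to 13.9), beside 18.5%. The shares over all loops are looser counts than those of the members. They accept any gene shared by both anchors, and a gene end at either anchor when the other touches a gene. The members' shares look from the member alone, so members and all loops are not compared like for like. Loops of 1 library share their source and several share an anchor, so these shares carry no test. The mix differed by gene. Acly led mostly to another gene's end (59.1% of PETs), and Dgat2 often into other gene bodies (37.6%), mainly that of Mogat2. Scd1 led mostly outside genes (80.4%), and Elovl6 and Acaca stayed mostly within their own windows (76.9% and 83.3%). Elovl5 was split between outside genes (50.3%) and its own window (49.0%), with an anchor cut by the window edge. Windows ran from 23.3 kb at Scd1 to 282 kb at Acaca, and the part of window length in this mix was not tested.

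**Figure D5:**
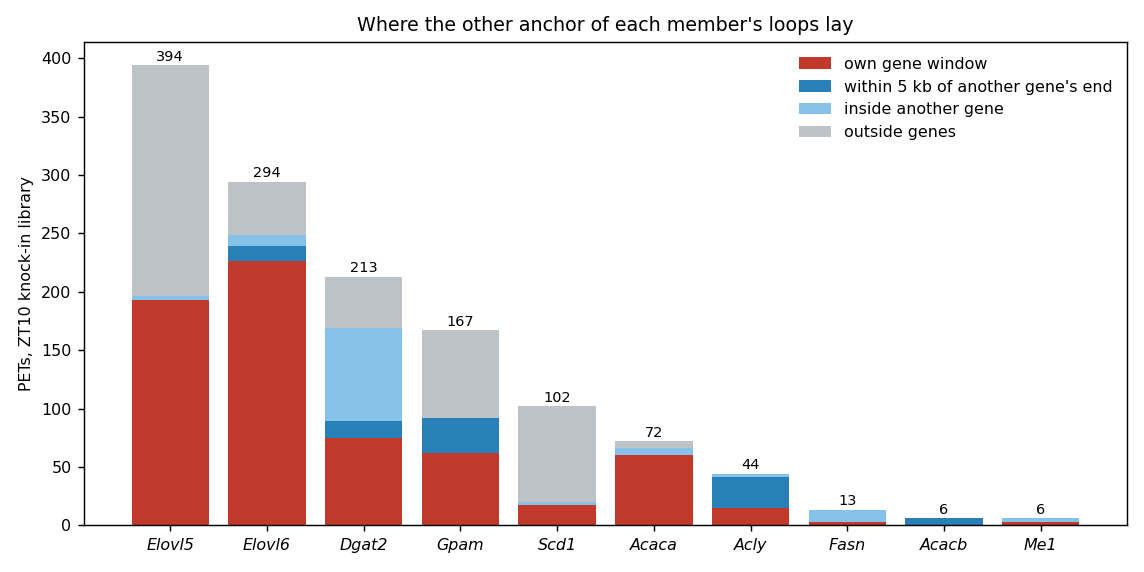
PETs of each gene in the ZT10 knock-in library, stacked by where the other anchor lay, with the gene's total above the bar. Red (own window) makes up 226 of 294 PETs at Elovl6, grey (outside genes) 82 of 102 at Scd1, and light blue (inside another gene) 80 of 213 at Dgat2.

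Few of these loops recurred. A ZT10 loop was matched when both anchors overlapped one of another library by at least 1 bp. Of the members' 26 ZT22 loops 2 matched: 1 inside Dgat2 over 12.9 kb, with 3 PETs at ZT22 and 22 at ZT10, and 1 inside Gpam over 9.82 kb, with 3 PETs at ZT22 and 6 at ZT10. Over the whole library 1.29% of ZT22 loops matched. In dhIDR replicate 1, 2 of 36 matched (0.722% of all its loops): 1 at Elovl6 over 163 kb to the intergenic anchor upstream, with 3 PETs there and 11 at ZT10, and 1 from Dgat2 to Mogat2 over 47.0 kb, with 3 PETs there and 6 at ZT10. None of the members' loops in dhIDR replicate 2, WT replicate 1 or WT replicate 2 matched a ZT10 loop (0.348%, 0.525% and 0.365% of all loops did). No member loop was matched between any pair of AAV libraries. The share of all loops matched between AAV libraries was not computed, so nothing about the members is read from this.

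Between the constructs, no member passed the test. Of 4608 genes tested with edgeR's quasi-likelihood test, 0.0217% (1 gene) passed an adjusted p of 0.05, and none of the 5 members with enough PETs to be tested did. The gene was Sfi1, lower with dhIDR and named after its value was seen. At an unadjusted p under 0.05 there were 124 genes, none of them a member. Acaca differed by -0.33 ± 0.57 (log2 dhIDR minus WT, SE), Elovl6 by 0.47 ± 0.58, Dgat2 by 0.72 ± 1.15, Elovl5 by -0.75 ± 1.11 and Me1 by 0.12 ± 0.63. Each of these 5 had an edgeR adjusted p of 0.9998, and each SE was larger than the difference. Fasn, Acacb, Acly, Scd1 and Gpam had too few PETs for the filter. A missed threshold at these counts does not show that the constructs looped these genes alike.

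In PETs per 10000 listed, the dhIDR and WT libraries overlapped at 9 of the 10 genes. The exception was Acacb, with 0.617 and 0.374 with dhIDR, against 0.288 and 0.294 with WT, which rests on 11 and 6 PETs against 3 and 6 PETs. Among 18946 genes with a PET in any AAV library, 14.5% did not overlap with dhIDR higher and 12.0% with dhIDR lower, and 1 of 10 genes is near these shares. At Acaca, Elovl5, Elovl6, Me1 and Dgat2, the members tested above, the replicates of each construct differed by more than the means of the constructs. Elovl5 had 0.785 and 0.187 PETs per 10000 with dhIDR, against 1.44 and 0.294 with WT, and Dgat2 0.336 and 1.18 with dhIDR, against 0.768 and 0.196 with WT. Elovl6 had 1.40 and 1.87 with dhIDR and 1.44 and 0.931 with WT.

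Beside the members, 40 further genes of lipid synthesis were read in the same way, from transcription factors such as Srebf1 and Mlxipl to acyl-CoA synthetases and lipid droplet proteins. Of these, 38 had a ZT10 PET, 24 had at least 30 PETs over both knock-in libraries, 19 were at least 4 times higher at ZT10, 0 were 4 times lower and 5 were neither, beside the 41.9% and 16.3% of all genes given above. The median log2 ratio of the 24 was 2.75. None of the 40 reached 30 PETs at ZT22, where the highest had 22, so a gene low there entered only through ZT10 PETs. Nothing is read from these counts or their median. The 3 with most ZT10 PETs were Insig2, which retains SREBPs in the endoplasmic reticulum, with 291 PETs at ZT10 and 11 at ZT22, Gpat4, a glycerol-3-phosphate acyltransferase, with 249 and 15, and Acsl1, an acyl-CoA synthetase, with 233 and 9. Scd2, the desaturase paralog of Scd1, and G6pdx, which makes NADPH, were listed at 0 in both. The list shares the ZT10 library with the members and is no independent support.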

How the data were processed

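The authors deposited 1 loop list per library: pairs of anchors on 1 chromosome and the raw count of PETs joining them, neither normalized nor pooled. Coordinates are in mm10, per the submitters' processing notes. Aligner, duplicate filter and loop caller are not given in the sources used here, nor is whether intervals start from 0 or 1, and anchor coordinates are printed as the files give them. Samples were grouped and numbered by their titles.

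Per gene of RefSeq's GRCm38.p6 annotation, PETs of every loop with an anchor in the gene body or 5 kb either side were summed, each loop once, so neighbours share PETs. Mitochondrial loops were left out. Shares are of listed PETs, which are not the sequencing depth. dhIDR and WT counts over all genes were compared with edgeR 4.0.16 (TMM, filterByExpr, Benjamini-Hochberg at 0.05) in R 4.3.3, with DESeq2 1.42.0 as an alternative. The knock-in libraries have 1 sample each: ratios carry Clopper-Pearson intervals, with a call at 4-fold for genes of at least 30 PETs and a 0 set to 3 PETs. Spans run between anchor centres (Python 3.11.15, pandas 2.3.3, scipy 1.17.1). Both procedures were run on simulated independent counts, for edgeR partly deeper and less variable than these data. This checks the code and not the power at these counts.

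Members and lists were chosen with earlier results of these data known. All 10 members were to be named, with the strongest ZT10 loop, the loops matching a ZT10 loop, the partner gene (an end within 5 kb) with most PETs, 3 pathway genes with most PETs and those with none. Merged anchors, counts over whole neighbouring windows and the Elovl6 loop of 13 PETs were chosen after their values were seen. Numbered replicates of the constructs did not pair: deviations of same-numbered libraries from their group means correlated at 0.01 over 4608 genes.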

Additional observations from a re-analysis of the deposited data

How the results depend on the processing

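Of the members' calls between the knock-in libraries, those of Elovl5 and Dgat2 held in all 10 alternatives, those of Elovl6 and Scd1 in 9, that of Gpam in 8 and that of Acly in 4. Members called higher at ZT10 numbered 6, and 3 after scaling to the median gene or with both anchors at least 700 bp wide, where Acly had 41 PETs at ZT10 and 0 at ZT22 and Scd1 96 and 0, so that their ratios are lower bounds under 4-fold. Genes called higher numbered 1560, and 444 after median scaling, 198 with wide anchors and 666 with loops of at least 4 PETs. Genes called lower numbered 606, and became 974 after median scaling, 920 with 25 kb flanks, 4 at gene ends alone, 22 with wide anchors, 75 with at least 4 PETs and 255 with spans up to 2 Mb. Acaca and Fasn, neither called, had measured log2 ratios below 0 in 6 and 1 of 10 alternatives.

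Between the constructs 0 members passed wherever any could be tested, DESeq2 included. The members tested were 5, but 1 at gene ends, 2 with spans up to 2 Mb and 0 with wide anchors. Genes called numbered 1, but 3 with no filter or with 25 kb flanks, and 0 at gene ends, with wide anchors, with at least 4 PETs or with spans up to 2 Mb. They ranged from 2 to 7 with 1 library left out, which leaves 1 library in that construct and assumes that it varies like those of the other. With at least 4 PETs the edgeR log2 difference turned to -0.17 at Me1 and -0.16 at Dgat2. Leaving out 1 library gave -0.84 to 0.041 at Acaca, -2.08 to 0.58 at Elovl5, -0.28 to 0.45 at Me1 and -0.43 to 1.79 at Dgat2. Pairing same-numbered libraries as a replicate block also called 1 gene, and since the numbers did not pair (correlation 0.01) it says nothing more.

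Shares of ZT10 loops in the own window were 43.5%, and 52.3% with 25 kb flanks or 51.8% with at least 4 PETs. Partners at another gene's end were 9.48%, and 6.03% within 2 kb. Loops under 100 kb were 83.2%, and 88.6% with at least 4 PETs. The causes were not tested. The members had at most 33 PETs each in any AAV or ZT22 library.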

Other observations

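The 3 genes whose PETs per 10000 listed over the 6 libraries lay closest to those of Dgat2, the member with most ZT10 PETs per kb, were Cela1, Acadm and Lrp5. Cela1, an elastase, had 209 PETs at ZT10 and 3 at ZT22, 6 and 13 with dhIDR and 7 and 3 with WT. Acadm, the medium-chain acyl-CoA dehydrogenase of fatty acid oxidation, had 256 and 3 PETs at the same times, 10 and 19 with dhIDR and 9 and 11 with WT. Lrp5, a Wnt co-receptor, had 185 and 6 PETs, 14 and 16 with dhIDR and 6 and 6 with WT. Likeness was the Euclidean distance of log2(PETs per 10000 listed + 1), which was 0.290, 0.493 and 0.567. The distance takes in all 6 libraries, and the part of each was not tested.

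At ZT22 the strongest member loops had 4 PETs each, over 61.7 and 119.7 kb at Elovl6 and over 64.7 kb and 5.69 Mb at Acaca. In the AAV libraries the strongest had 13 PETs over 25.1 Mb at Elovl6 and 8 PETs over 28.8 Mb at Dgat2 in dhIDR replicate 2, and 7 PETs over 908 kb at Gpam in dhIDR replicate 1. With WT they had 6 PETs over 9.52 Mb at Elovl6 in replicate 1 and 6 PETs over 66.0 Mb at Me1 in replicate 2. None of these matched a loop of another library.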
